A study of Mus musculus with 6 samples.

Results

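The transcripts of 38 proteasome and immunoproteasome subunits were examined in dendritic cells from wild-type and Vps33b conditional knock-out mice. The 38 were chosen by name from a list of core, regulatory and activator subunits and matched through GENCODE M21 symbols. All 38 were found among the 32285 features counted, and all 38 passed the filter on low counts. They comprise 5 immunoproteasome genes (Psmb8, Psmb9, Psmb10, Psme1 and Psme2) and 33 constitutive ones. The 33 are 7 alpha-ring genes, 7 constitutive beta-ring genes, 6 base ATPases, 11 other regulatory particle subunits, and the nuclear activators Psme3 and Psme4.

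The proteasome is the barrel-shaped protease that degrades ubiquitin-tagged proteins and yields the peptides shown on MHC class I. Its core particle is built from alpha subunits, which form the outer rings and the gate, and beta subunits, which form the inner rings and hold the active sites. A regulatory particle with a base of ATPases and a lid recognises, unfolds and feeds in ubiquitinated proteins. In cells exposed to interferon, and constitutively in many immune cells, PSMB8, PSMB9 and PSMB10 are built in as the active beta subunits in place of PSMB5, PSMB6 and PSMB7, giving the immunoproteasome, and the activator PA28, made of PSME1 and PSME2, is induced alongside. Type 1 conventional dendritic cells (cDC1s) specialise in presenting peptides of captured proteins on MHC class I to CD8 T cells.

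RNA was sequenced from cDC1s sorted from the mLN of C57BL/6 mice, with 3 libraries from Vps33b conditional knock-outs (KO; genotype Vps33BdeltaDC) and 3 from wild-type animals (WT). Mice of both genotypes had been given 50 µg of house dust mite extract (HDM) through the nose 24 h before the sort, so no unexposed group is part of the comparison. The sources used here give no Cre driver, no deleted exons and no ages. Whether each library is a separate animal or a pool is also not stated in the labels, so the p-values reflect library-to-library spread, part of which may be technical.

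Library totals lay between 11755944 and 17434247 counts in KO and between 14949229 and 18450678 in WT. Levels are given in CPM, counts scaled to a common library total after TMM scaling. Vps33b itself was at 5.0 to 8.29 CPM in the KO libraries and at 13.8 to 19.1 CPM in the WT libraries, without overlap. Its log2 fold change was -1.277 ± 0.27 (SE), a fold of 0.413, so part of the transcript remained in KO. The edgeR adjusted p of this deleted gene was 0.834, so it was not called either. Of 10 cDC1 markers, all were detected in every library. Their sum was 2013 to 2504 CPM in KO and 2053 to 2504 CPM in WT, of which Irf8 alone made up 65.8% in KO and 62.4% in WT. By gene, 7 of the 10 had log2 fold changes below 0, with a median of -0.423 and none past the adjusted threshold. Groups did not overlap for Xcr1, a chemokine receptor of cDC1s (5.72 to 11.4 CPM in KO and 13.1 to 44.6 CPM in WT), and Wdfy4, needed for cross-presentation (33.3 to 58.3 CPM in KO and 66.9 to 110.6 CPM in WT). Every KO library was below every WT library in 5.19% of all genes tested. The part of these marker levels in the subunit values was not tested. In bulk RNA, fewer cells of a type and less RNA per cell cannot be told apart.

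The promoter windows of 5 subunit genes are shown because they hold the members with the largest fold changes of the immunoproteasome and of the constitutive beta ring, the second exchange pair (Psmb9 and Psmb6), and the PA28 gene with the highest level. Each runs from 250 bases before to 50 bases after the RefSeq start, 5′ to 3′ on the gene's own strand, in RefSeq's GRCm38.p6. Capitals mark a match, on either strand, to the interferon-stimulated response element core (GAAA, any 2 bases, GAAA), the gamma-activated site TTCNNNGAA or the antioxidant response element core TGACNNNGC. Psmb8 lies at chr17:34197945-34198244 (plus strand), Psmb5 at chr14:54617946-54618245 (minus), Psmb9 at chr17:34187281-34187580 (minus), Psmb6 at chr11:70525107-70525406 (plus) and Psme1 at chr14:55578244-55578543 (plus).
Psmb8: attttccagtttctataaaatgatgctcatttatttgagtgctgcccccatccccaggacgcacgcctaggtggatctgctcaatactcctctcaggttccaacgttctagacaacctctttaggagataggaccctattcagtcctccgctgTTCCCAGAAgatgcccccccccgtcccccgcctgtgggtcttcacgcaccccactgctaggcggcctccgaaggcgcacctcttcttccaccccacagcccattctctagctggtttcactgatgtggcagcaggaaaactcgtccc
Psmb5: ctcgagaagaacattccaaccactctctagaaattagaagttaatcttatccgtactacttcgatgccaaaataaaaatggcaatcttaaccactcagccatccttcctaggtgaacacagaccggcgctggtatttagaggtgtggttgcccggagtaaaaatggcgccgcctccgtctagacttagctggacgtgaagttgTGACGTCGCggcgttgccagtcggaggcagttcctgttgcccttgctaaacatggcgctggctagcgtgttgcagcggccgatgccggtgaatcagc
Psmb9: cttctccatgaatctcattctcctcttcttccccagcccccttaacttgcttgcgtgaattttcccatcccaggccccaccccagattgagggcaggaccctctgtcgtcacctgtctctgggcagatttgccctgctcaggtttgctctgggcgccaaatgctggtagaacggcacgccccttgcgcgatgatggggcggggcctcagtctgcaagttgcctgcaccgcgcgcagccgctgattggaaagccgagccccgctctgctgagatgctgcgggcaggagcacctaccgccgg
Psmb6: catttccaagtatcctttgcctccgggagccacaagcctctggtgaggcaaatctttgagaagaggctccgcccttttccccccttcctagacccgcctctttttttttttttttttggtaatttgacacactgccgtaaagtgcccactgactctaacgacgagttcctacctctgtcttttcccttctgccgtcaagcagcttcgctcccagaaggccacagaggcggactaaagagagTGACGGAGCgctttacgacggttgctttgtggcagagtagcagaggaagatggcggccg
Psme1: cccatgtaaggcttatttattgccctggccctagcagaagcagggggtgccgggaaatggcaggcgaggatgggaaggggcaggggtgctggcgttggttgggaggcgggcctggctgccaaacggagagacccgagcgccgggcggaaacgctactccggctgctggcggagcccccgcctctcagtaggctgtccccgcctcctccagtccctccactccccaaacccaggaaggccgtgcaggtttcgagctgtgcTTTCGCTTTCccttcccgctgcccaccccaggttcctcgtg

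In these windows, Psmb8 held a gamma-activated site letter match whose first base lies 97 bases before the start, and Psme1 held an interferon-stimulated response element core, read on the opposite strand, 9 bases after the start. Psmb5 and Psmb6 each held an antioxidant response element core, at 47 and 9 bases before the start. Psmb9 held none of the 3 motifs, and the printed windows held at most 1 match each. Windows were found for 32 of the 38 members. The interferon-stimulated response element core occurred in 3 of the 32 (Psmb3, Psmd4 and Psme1), against 3.44% of all 32851 promoters. TTCNNNGAA occurred in 2 (Psmb8 and Psmd2), against 8.3%, and TGACNNNGC in 5 (Psmb5, Psmb6, Psmc6, Psmd12 and Psme4), against 12.4%. The shares of members were 9.38%, 6.25% and 15.6%. A match is a description of letters and not of a bound site. The RefSeq start lies 474 bases downstream of the annotated GENCODE gene start for Psmb8, 434 for Psmb9 and 371 for Psme1, so these windows cover one of the possible starts only.

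Immunoproteasome transcripts were among the most abundant subunit transcripts of these cells in both genotypes. Per kilobase of the principal transcript, averaged over all 6 libraries, Psme1 ranked 39th and Psme2 66th of 12561 genes with a length. Psmb8 ranked 105th, Psmb9 195th and Psmb10 403rd. On this length the highest constitutive gene was Psma7, an alpha-ring gene, at rank 321, above Psmb10, and the lowest was Psme4, which encodes the nuclear activator PA200, at rank 4600. The immunoproteasome genes had a median of 631.5 CPM per kilobase in KO and 493.4 in WT, and the 33 constitutive genes had a median of 93.3 CPM per kilobase in KO and 78.6 in WT. Within the alpha ring, whose subunits are assembled in equal number, levels still ran from 46.2 (Psma3) to 254.1 (Psma7) CPM per kilobase in KO and from 39.6 (Psma3) to 214.9 (Psma7) in WT. Base ATPases lay between 59.1 and 111.9 CPM per kilobase in KO and between 58.7 and 93.9 in WT. The spread among other regulatory particle subunits was wider. Psmd12 was lowest at 35.0 CPM per kilobase in both groups (35.05 in KO and 34.95 in WT). Psmd4, a ubiquitin receptor, was highest at 158.4 in KO and 146.0 in WT. The order within a role depends on the length assumed. With the union of annotated exons, Psma7 was at 75.6 CPM per kilobase in KO, the alpha ring ran from 33.8 (Psma3) to 154.9 (Psma6) in KO and from 28.9 (Psma3) to 135.3 (Psma5) in WT, and the immunoproteasome genes ran from 137.9 (Psmb9) to 526.5 (Psme1) in KO and from 121.7 (Psmb9) to 455.1 (Psme1) in WT. Psmd11 was then the lowest and Psmd2 the highest of the 11 other regulatory particle subunits.

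**Figure D1:**
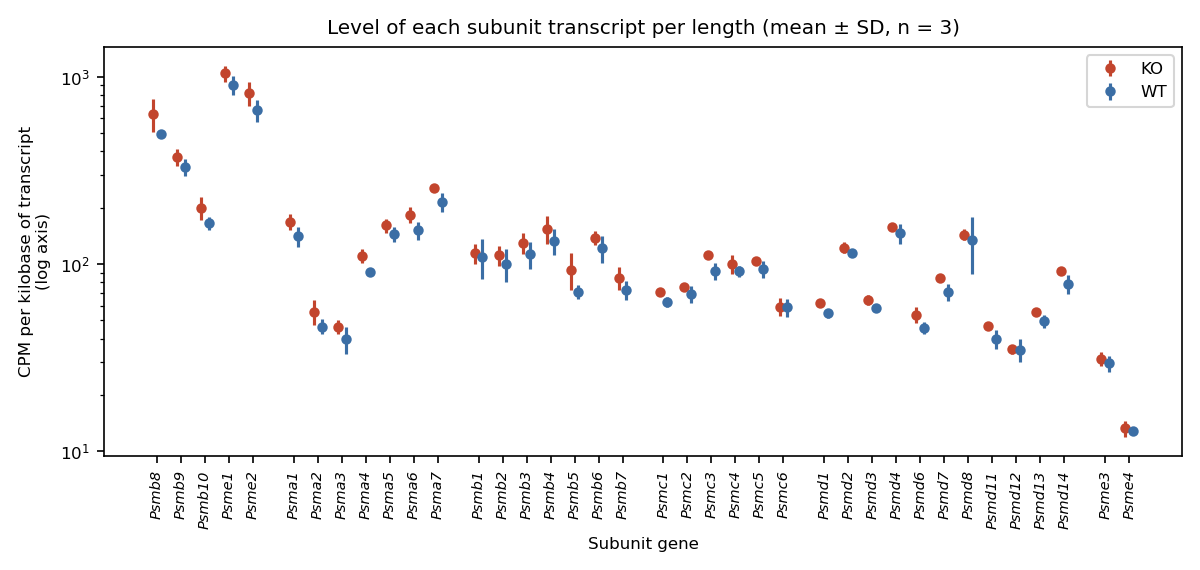
Level of each of the 38 subunit transcripts as CPM per kilobase of the principal transcript (log axis), by role, for KO (red, left of each pair) and WT (blue, right); points are means and lines are SD over 3 libraries. Psme1 stands highest at 1046 in KO and 904.1 in WT, Psma7 stands above Psmb10, and Psme4 stands lowest at 13.2 in KO and 12.8 in WT.

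The comparison of KO with WT asks how subunit transcripts differ in HDM-exposed cDC1s when Vps33b is deleted. Every one of the 38 fitted log2 fold changes lay above 0, between 0.008 (Psmd12) and 0.393 (Psmb5), with a median of 0.198. Psmd12 is at the edge and lay between -0.001 and -0.003 under RLE or upper-quartile scaling, a filter of 1 CPM or DESeq2. Over all 12568 genes tested, 50.6% lay above 0 and the median was 0.004. None of the 38 passed an adjusted p of 0.05 in the edgeR quasi-likelihood test, where 0.0% of all genes passed, and the smallest adjusted p among members was 0.834. DESeq2 and limma-voom called 0 members as well. At an unadjusted p under 0.05, edgeR gave 4 members higher in KO (Psmb5, Psma4, Psmb8 and Psmc3) and 0 lower, against 2.71% of all genes higher and 3.06% lower. DESeq2 and limma-voom gave 3 each, against 665 and 657 of the 12568 genes in either direction. Every KO library was above every WT library in 9 members, against 5.46% of all genes, and 0 members had the opposite order, against 5.19%. Those 9 were Psma4, Psma7, Psmc1, Psmc3, Psmd1, Psmd3, Psmd6, Psmd7 and Psmd11, and in the other 29 the groups overlapped. The subunit transcripts share the same 6 libraries and vary together across them, so the 38 values are not 38 independent observations. At a fold change of 1.5, above all member values here, simulated counts for this comparison over 12568 genes gave a call for 16% of 50 changed genes. Recovery at smaller folds, with fewer genes changed, or for genes as abundant as these alone, was not simulated.

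**Figure D2:**
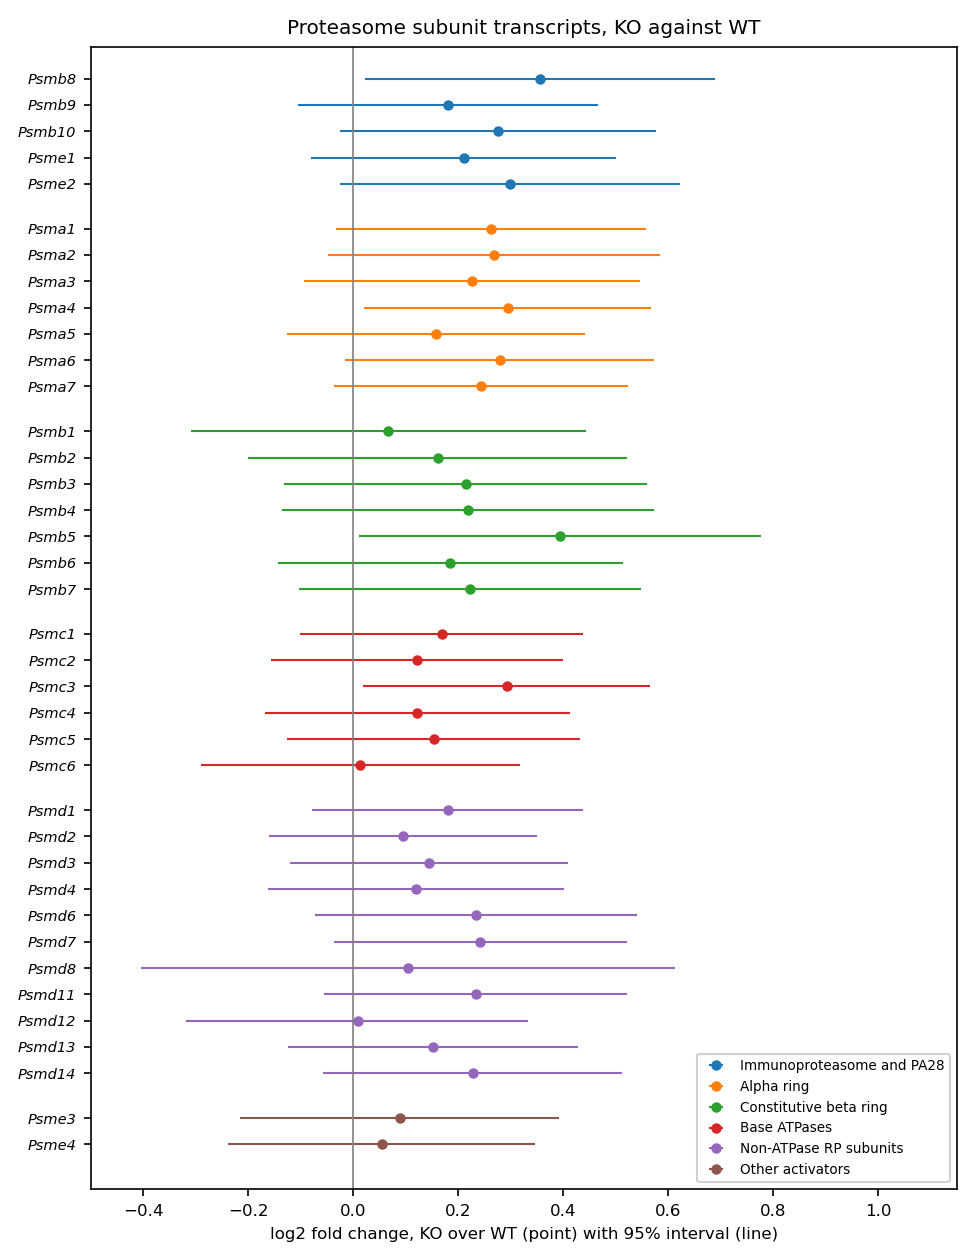
Log2 fold change of each subunit transcript, KO over WT (point), with its 95% interval (line), from the edgeR quasi-likelihood fit, coloured by role. All 38 points lie right of 0, between 0.008 and 0.393, and the intervals of 4 genes (Psmb8, Psma4, Psmb5 and Psmc3) do not reach 0.

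Among the immunoproteasome genes, the median log2 fold change was 0.275, with 5 of 5 above 0 and 0 past the adjusted threshold. An unadjusted edgeR p under 0.05 was reached by 1, against 5.77% of all genes in either direction. Groups were without overlap in 0, against 10.6% of all genes in either direction. The median rests in part on KO replicate 2: it was 0.14 without that library, when the constitutive median was 0.138. Psmb8 (ENSMUSG00000024338; chr17:34197721-34201454, plus strand, mm10), which encodes the inducible counterpart of PSMB5 (LMP7), had 789.7, 1133 and 1161 CPM in the KO libraries, against 806.9, 823.6 and 779.3 CPM in the WT libraries. KO replicates 2 and 3 were high, while KO replicate 1 lay within the narrow WT range. This gave a log2 fold change of 0.356 ± 0.152 (SE; edgeR adjusted p = 0.834). Without KO replicate 1 it was 0.514, and this gene then had the smallest adjusted p of any member, 0.112. Psmb9 (ENSMUSG00000096727; chr17:34181987-34187764, minus strand), the inducible counterpart of PSMB6 (LMP2), had 450.5, 551.3 and 512.2 CPM in KO, against 422.8, 497.0 and 416.8 CPM in WT. Its groups overlapped through WT replicate 2, and its log2 fold change was 0.180 ± 0.130. Psmb10 (ENSMUSG00000031897; chr8:105935735-105938444, minus strand), the inducible counterpart of PSMB7 (MECL-1), had 231.0, 303.6 and 251.6 CPM in KO, against 213.1, 236.0 and 201.5 CPM in WT, a log2 fold change of 0.275 ± 0.137. Here only KO replicate 1 fell below the highest WT library.

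The PA28 genes ordered the libraries within each group as Psmb9 and Psmb10 did. Psme1 (ENSMUSG00000022216; chr14:55578123-55581529, plus strand), which encodes PA28 alpha, had 1043, 1271 and 1175 CPM in KO, against 983.9, 1129 and 902.8 CPM in WT, a log2 fold change of 0.211 ± 0.133. Psme2 (ENSMUSG00000079197; chr14:55587441-55591113, minus strand), which encodes PA28 beta, had 654.3, 861.0 and 844.1 CPM in KO, against 606.0, 737.3 and 574.8 CPM in WT, a log2 fold change of 0.299 ± 0.148. In both genes KO replicate 1 lay below WT replicate 2 and above the other WT libraries. Psme2b, a copy on chromosome 11 whose transcript is 99.4% identical to Psme2 over 794 bases, held counts equal to 24.5% of those of Psme2, so the split of reads between the genes is uncertain. The sum of both was 806.2, 1064 and 1059 CPM in KO, against 749.5, 934.5 and 715.8 CPM in WT, a log2 difference of means of 0.288.

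**Figure D3:**
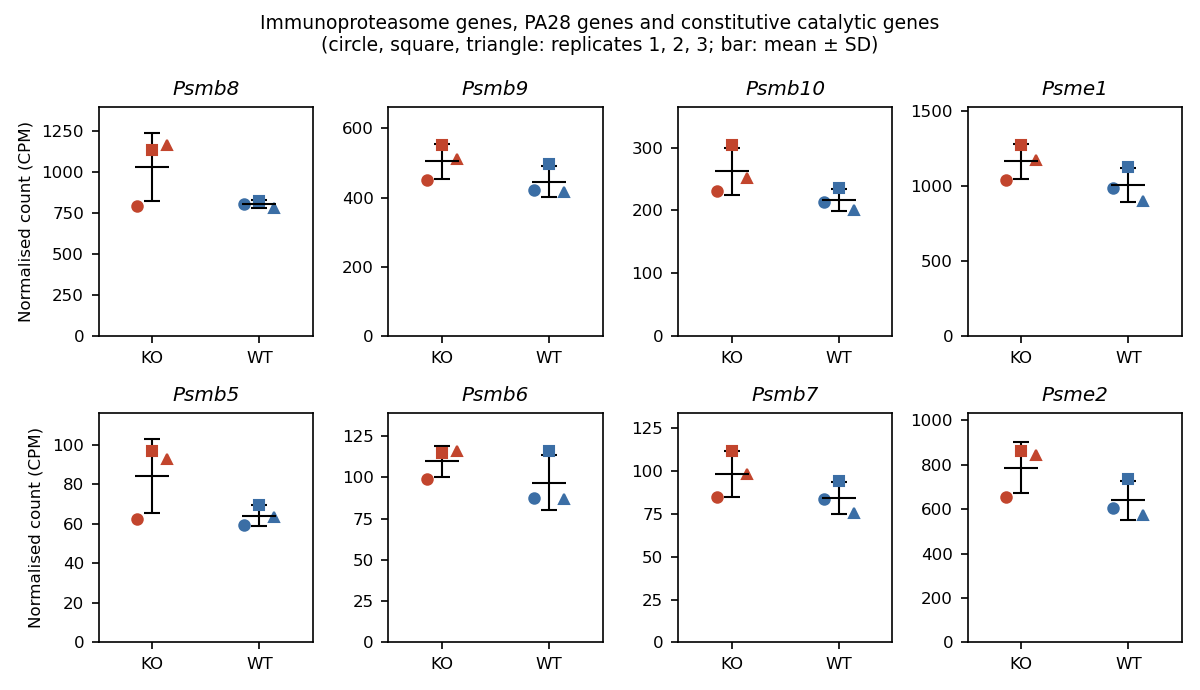
TMM-scaled CPM of the 3 inducible catalytic genes (Psmb8, Psmb9 and Psmb10), their constitutive counterparts below them (Psmb5, Psmb6 and Psmb7) and the PA28 genes Psme1 and Psme2, for KO (left, red) and WT (right, blue). Circles, squares and triangles are replicates 1, 2 and 3, bars are mean ± SD (n = 3); in each of the 8 panels at least 1 KO library lies within or below the WT range.

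The constitutive catalytic genes had a like pattern across libraries. Psmb5 (ENSMUSG00000022193; chr14:54614119-54618022, minus strand), which encodes the chymotrypsin-like subunit, had 62.4, 96.6 and 92.7 CPM in KO, against 59.1, 69.5 and 63.4 CPM in WT. KO replicates 2 and 3 lay above all WT libraries and KO replicate 1 between them. Its log2 fold change of 0.393 ± 0.175 was the largest of the 38 members (edgeR adjusted p = 0.834), and without KO replicate 2 it was 0.259. Psmb6, the caspase-like subunit, had 99.1, 114.8 and 115.9 CPM in KO, against 87.6, 115.9 and 87.2 CPM in WT, a log2 fold change of 0.184 ± 0.150. Psmb7, the trypsin-like subunit, had 84.6, 111.4 and 97.9 CPM in KO, against 83.5, 93.9 and 75.2 CPM in WT, a log2 fold change of 0.222 ± 0.149. For both, WT replicate 2 reached into the KO range. The 4 non-catalytic members of the constitutive beta ring lay between 0.066 ± 0.172 (Psmb1) and 0.218 ± 0.161 (Psmb4).

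The balance between inducible and constitutive catalytic transcripts was close to equal in KO and WT. The log2 ratio of Psmb8 to Psmb5 was 3.66, 3.55 and 3.65 in KO, against 3.77, 3.57 and 3.62 in WT, a difference of -0.033 (exact two-sided permutation p = 0.8, adjusted over the 3 ratios 0.9). For Psmb9 to Psmb6 the log2 ratio was 2.18, 2.26 and 2.14 in KO, against 2.27, 2.10 and 2.26 in WT. The difference was -0.012 on the log2 scale (exact permutation p = 0.9, adjusted 0.9). For Psmb10 to Psmb7 the log2 ratio was 1.45, 1.45 and 1.36 in KO, against 1.35, 1.33 and 1.42 in WT. The difference was 0.051 on the log2 scale (exact permutation p = 0.2, adjusted 0.6). The groups overlapped in all 3 ratios, and 3 libraries against 3 cannot give a p below 0.1, so a shift between the proteasome forms was not detectable here. The signs of the first and second differences are not stable, since both changed when a single library was left out. Summed over the 3 genes of each form in CPM, with no correction for length, inducible catalytic transcripts were 5.98, 6.16 and 6.28 times the constitutive ones in KO, against 6.27, 5.57 and 6.19 times in WT. Per kilobase of the principal transcript, Psmb8 exceeded Psmb5 by 6.48 to 7.54 times across the 6 libraries, Psmb9 exceeded Psmb6 by 2.53 to 2.85 times and Psmb10 exceeded Psmb7 by 2.22 to 2.42 times. With the union of annotated exons as length, an alternative chosen after the data were examined, these were 3.12 to 3.63, 2.19 to 2.47 and 5.04 to 5.48 times, so the order among the pairs depends on the transcript assumed.

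All 7 alpha-ring genes were above 0, with a median of 0.263 on the log2 scale. Psma4 had 119.0, 140.5 and 126.5 CPM in KO, against 101.3, 108.7 and 105.3 CPM in WT. Its KO libraries were all above its WT libraries, with a log2 fold change of 0.294 ± 0.125 (edgeR adjusted p = 0.834). Psma6 had 172.2, 209.2 and 191.8 CPM in KO, against 148.0, 177.7 and 147.4 CPM in WT, a log2 fold change of 0.279 ± 0.134, with KO replicate 1 below WT replicate 2. Psma7 was the other alpha-ring gene without overlap (0.243 ± 0.127), and the 7 genes ranged from 0.157 (Psma5) upward to the value of Psma4.

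The 17 regulatory particle genes had a median log2 fold change of 0.152, beside 0.224 for the 14 constitutive core genes, a difference that was not tested. Without KO replicate 2 the order turned, at 0.161 for the regulatory particle and 0.138 for the core, and with GC and length offsets they were 0.155 and 0.152. The median was 0.137 for the 6 base ATPases and 0.152 for the 11 other subunits. Of the 17, 7 had groups that did not overlap, against 2 of the 14 constitutive core genes and 0 of the 5 immunoproteasome genes. Every KO library lay above every WT library in these, as in 5.46% of all genes tested. The difference between the counts of the parts was not tested. Psmc3, an ATPase of the base, had 177.2, 190.5 and 181.5 CPM in KO, against 144.5, 167.0 and 137.5 CPM in WT, a log2 fold change of 0.292 ± 0.125 (edgeR adjusted p = 0.834). Psmc1, another base ATPase, had 108.9, 110.1 and 118.9 CPM in KO, against 97.3, 107.1 and 96.4 CPM in WT, a log2 fold change of 0.168 ± 0.123. The lowest KO library was above the highest WT library in both genes. Psmd7, the lid partner of the deubiquitinase PSMD14, had 135.3, 132.2 and 130.2 CPM in KO, against 103.2, 125.8 and 107.8 CPM in WT, a log2 fold change of 0.242 ± 0.127. Psmd11, a lid scaffold subunit, had 128.9, 140.3 and 131.8 CPM in KO, against 98.7, 124.1 and 118.8 CPM in WT, a log2 fold change of 0.233 ± 0.132. These groups did not overlap either. Psmd14 itself was at 0.227 ± 0.130.

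Members near 0 included regulatory particle genes and both nuclear activators. Psmd12, a lid subunit with the lowest log2 fold change of all, had 71.3, 65.4 and 63.5 CPM in KO, against 67.7, 75.3 and 56.6 CPM in WT, a value of 0.008 ± 0.148. The KO libraries lay inside the WT range. The base ATPase Psmc6 was at 0.013 ± 0.139. Psme3, which encodes the nuclear activator PA28 gamma, had 78.5, 92.0 and 79.1 CPM in KO, against 86.6, 76.5 and 72.2 CPM in WT, a log2 fold change of 0.088 ± 0.138. Psme4 had 89.7, 92.2 and 75.9 CPM in KO, against 87.3, 81.2 and 80.5 CPM in WT, a log2 fold change of 0.054 ± 0.133. The groups overlapped in both activators. Psmd8, a lid subunit named after its values were seen, had 204.2, 232.8 and 225.3 CPM in KO, against 231.0, 258.3 and 128.0 CPM in WT. WT replicate 3 was far below the other 5 libraries, and without it the log2 fold change of 0.104 ± 0.227 became -0.148.

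**Figure D4:**
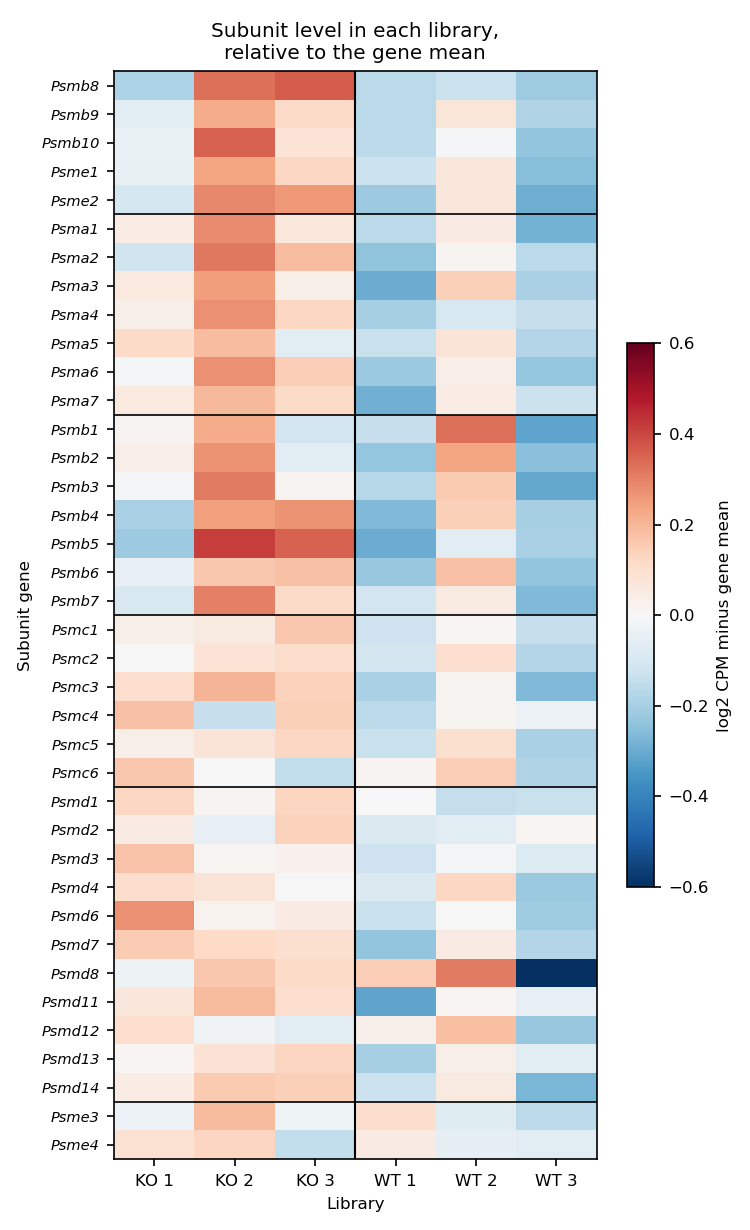
Log2 CPM of each subunit transcript (rows, by role) in each library (columns, KO left and WT right of the vertical line) minus the gene's mean over the 6 libraries; red is above and blue below the mean, and the colour scale ends at 0.6 either way. KO replicate 2 is highest in 20 of 38 genes and WT replicate 3 lowest in 24, while WT replicate 2 is above the gene mean in 29 genes.

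Libraries of one group differed in how much subunit transcript they carried. KO replicate 2 had the highest level in 20 of the 38 members, KO replicate 3 in 9, KO replicate 1 in 5 and WT replicate 2 in 4. The lowest level was in WT replicate 3 in 24 members and in WT replicate 1 in 12. KO replicate 2 was highest in 11 of the 14 constitutive core genes and 4 of the 5 immunoproteasome genes, but in 3 of the 17 regulatory particle genes. All 38 genes summed to 7916, 9227 and 8828 CPM in KO, against 7224, 8254 and 6912 CPM in WT, so the mean in KO was 116% of that in WT and the groups overlapped. Regulatory particle genes summed to 2638, 2594 and 2649 CPM in KO, against 2329, 2579 and 2204 CPM in WT, and these did not overlap, although WT replicate 2 lay just below the lowest KO library. Constitutive core genes summed to 1941, 2330 and 2079 CPM in KO, against 1688, 2094 and 1681 CPM in WT, and immunoproteasome genes to 3169, 4120 and 3944 CPM in KO, against 3033, 3423 and 2875 CPM in WT, both with overlap. The summed core to regulatory particle ratio was 0.736, 0.898 and 0.785 in KO, against 0.725, 0.812 and 0.763 in WT, and it was highest in replicate 2 of both groups.

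Other transcripts also differed between the libraries. Mitochondrially encoded genes took 1.81%, 2.52% and 2.34% of counts in KO, against 1.82%, 2.43% and 1.98% in WT, and KO replicate 2 was the highest and KO replicate 1 the lowest KO library in this share, as in the immunoproteasome sum. The 8 markers of mature, migratory dendritic cells summed to 14410, 16010 and 17650 CPM in KO, against 14070, 14010 and 13800 CPM in WT, without overlap, and KO replicate 1 was the lowest of its group here too. Fscn1 made up 39.7% of that sum in KO and 38.4% in WT, and by gene the groups overlapped in 7 of the 8 markers, all but Socs2. The 8 monocyte and macrophage markers summed to 164.2 to 645.8 CPM in KO, with the highest value in KO replicate 3, and to 189.3 to 334.8 CPM in WT. Lyz2 made up 74.2% of this in KO and 59.3% in WT. Of the 8, 4 lay below 0, and Cd14 was at 3.48 to 10.6 CPM in KO and 14.9 to 28.4 CPM in WT, without overlap. The 6 cDC2 markers summed to 126.0 to 218.4 CPM in KO and 101.9 to 159.4 CPM in WT, with Cd209a at 0 in 5 of the 6 libraries. Irf4 alone made up 84.1% of this sum in KO and 77.3% in WT. Of the 4 cDC2 markers tested, 2 lay below 0 and 2 above, and all 4 overlapped between the groups. The 5 plasmacytoid dendritic cell markers summed to 122.3 to 170.0 CPM in KO and 110.5 to 150.4 CPM in WT, of which Bst2, an interferon-induced gene, made up 79.2% in KO and 68.5% in WT. Of the 5, 3 lay below 0 and 2 above (Bst2 at 0.405 and Tcf4 at 0.03). Siglech, the more specific marker, was at 0.0 to 3.33 CPM in KO and 3.85 to 12.6 CPM in WT, without overlap, and the other 4 overlapped. Over all genes tested, every KO library was below every WT library in 5.19% and above in 5.46%. B cell markers (5 genes) summed to 109.5 to 400.2 CPM in KO and 163.4 to 284.7 CPM in WT, with Ighm at 91.1% of the sum in both groups. T cell markers (6) summed to 33.7 to 41.0 CPM in KO and 37.3 to 42.2 CPM in WT. Of these 6, 2 lay below 0 and 4 above. Only Cd4 was without overlap, at 6.19 to 11.2 CPM in KO and 12.0 to 18.3 CPM in WT. NK cell markers (4) stayed at or below 4.06 CPM in KO and 3.08 CPM in WT, and neutrophil markers (4) at or below 8.2 CPM in KO and 3.08 CPM in WT, with Ly6g at 0 in 5 of the 6 libraries. Of the 4 NK markers, 1 lay below 0 and 3 above. Gzma, with at most 24 counts in a library, was higher in every KO library than in any WT library, and the other 3 overlapped. The part of maturity, of other cells and of mitochondrial content in the subunit levels was not tested.

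**Figure D5:**
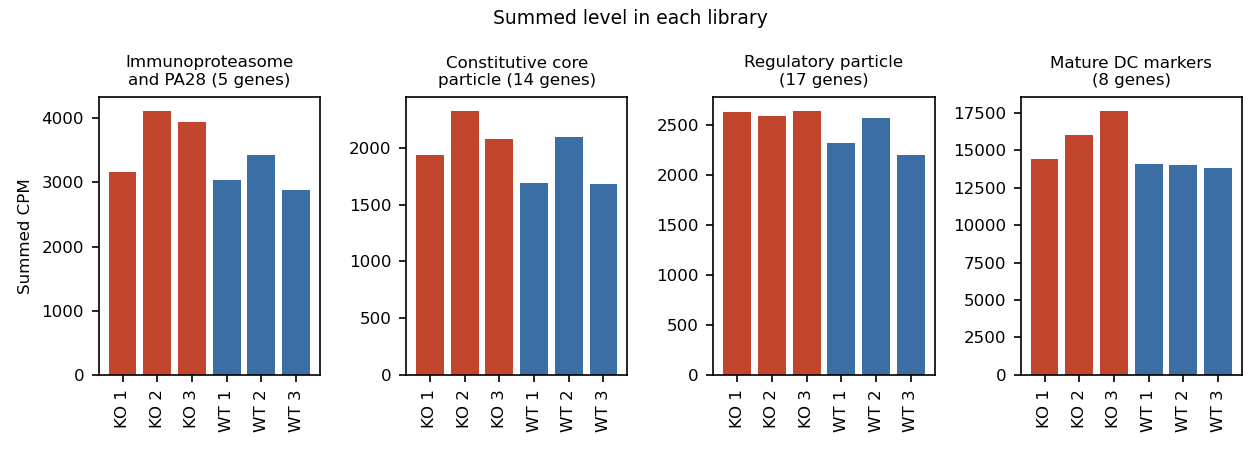
Summed CPM in each library (bars, KO red and left, WT blue and right) of the immunoproteasome and PA28 genes, the constitutive core particle, the regulatory particle and 8 mature dendritic cell markers. Regulatory particle sums (2594 to 2649 in KO, 2204 to 2579 in WT) and marker sums do not overlap between the groups, while the other sums do.

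Genes that assemble, bind or regulate the proteasome, or set its amount, were mostly above 0 as well. Of 20 such genes tested, 16 were above 0, the median was 0.109 on the log2 scale, and 0 had an edgeR p under 0.05 before adjustment. The 20 include genes whose products are part of the proteasome or bind it, such as Adrm1 (0.022 ± 0.127), Sem1 (0.133 ± 0.169) and Uchl5 (-0.16 ± 0.188). Pomp, the maturation factor of the core particle, had 122.2, 162.4 and 163.8 CPM in KO, against 117.8, 127.3 and 116.1 CPM in WT, a log2 fold change of 0.312 ± 0.142 (edgeR adjusted p = 0.834). KO replicate 1 again lay in the WT range. Psmd9, a chaperone of base assembly, had 14.6, 15.5 and 16.1 CPM in KO, against 12.2, 8.79 and 12.0 CPM in WT, without overlap, and a log2 fold change of 0.472 ± 0.227. Nfe2l1, the transcription factor that drives subunit genes when proteasome activity is short, was at 0.111 ± 0.168.

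Ubiquitin and delivery genes were also mostly above 0, with a median nearer that of all genes. Of 16 tested, 13 lay above 0 with a median of 0.047, against 50.6% and 0.004 over all genes. An edgeR p under 0.05 was reached by 0 of them. Ube2k, a ubiquitin-conjugating enzyme, had 83.1, 101.0 and 99.6 CPM in KO, against 74.5, 86.1 and 75.8 CPM in WT (log2 fold change 0.264 ± 0.138). Ube2n, which builds signalling ubiquitin chains, had 122.5, 179.8 and 161.5 CPM in KO, against 112.7, 140.0 and 127.3 CPM in WT (0.290 ± 0.159). Both overlapped between the groups.

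Genes of the signals that induce the immunoproteasome did not share the upward values. Of 13 tested, 6 lay above 0, with a median of -0.004, and 1 had an edgeR p under 0.05, in the lower direction. That gene was Ifngr1, the ligand-binding chain of the interferon-gamma receptor, with 58.3, 59.2 and 52.4 CPM in KO, against 73.8, 85.1 and 60.7 CPM in WT. Every KO library was below every WT library, and the log2 fold change was -0.364 ± 0.157 (edgeR adjusted p = 0.834). Nlrc5, the transactivator of MHC class I genes, had 606.4, 447.8 and 606.8 CPM in KO, against 664.1, 626.6 and 656.4 CPM in WT, also without overlap, and a log2 fold change of -0.230 ± 0.14. KO replicate 2, the library with the most subunit transcript, had the least Nlrc5. Irf1, which drives Psmb8, Psmb9 and Psmb10, was at 0.009 ± 0.131.

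Peptide trimming and MHC class I loading genes, which act on the proteasome's products, had 9 of 11 above 0, a median of 0.137 and 0 with an edgeR p under 0.05. H2-D1, an MHC class I heavy chain, had 5147, 6261 and 6222 CPM in KO, against 5082, 5516 and 4610 CPM in WT (log2 fold change 0.213 ± 0.132), with KO replicate 1 inside the WT range. Tapbp, which encodes tapasin, had 1399, 1543 and 1709 CPM in KO, against 1425, 1323 and 1335 CPM in WT (0.188 ± 0.122). Tap1 and Tap2 encode the peptide transporter and lie beside Psmb9 and Psmb8 in the MHC region of chromosome 17. Tap1 had 1069, 913.8 and 1228 CPM in KO, against 1061, 922.7 and 954.0 CPM in WT, a log2 fold change of 0.128 ± 0.137. Tap2 had 507.7, 509.4 and 574.0 CPM in KO, against 496.6, 503.5 and 498.2 CPM in WT, a log2 fold change of 0.086 ± 0.115. KO replicate 2 was the lowest of the 6 libraries for Tap1 and the highest for Psmb9, its neighbour. The tissue-restricted subunits did not pass the filter: Psma8, of the testis, had at most 12 counts in a library and was at 0 in the WT libraries, and Psmb11, of the thymic cortex, had at most 3 counts.

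Shared sequence limits a few of these values. Exons of 11 members overlap another annotated gene, and no source used here gives the strand setting of the counting. The share of exonic bases that overlap was 14.7% in Psmb8 (Gm20496, with 137 counts in all), 12.1% in Psmb5 (Mir686), 11.8% in Psmb7 (Nek6, with 46692 counts), 10.1% in Psmd13 (Sirt3), 8.2% in Psmc3 (Slc39a13) and 5.8% in Psmb9 (Tap1, with 95311 counts). Near-identical copies, at 95% identity or more over at least 150 bases, were found for 9 members, 17 copies in all. Besides Psme2b, A730017L22Rik is 97.9% identical to Psmd11 and held counts equal to 10.4% of those of that gene.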

How the data were processed

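Raw, unnormalized read counts per Ensembl gene were deposited by the authors for 6 libraries, 3 KO and 3 WT. The submitters' processing notes list HISAT2 2.0.5, HTSeq and mm10. No source used here gives the HTSeq version, annotation, strand setting or handling of multi-gene reads. GENCODE M21 named 32158 of 32285 features (99.6%).

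Genes were kept by filterByExpr of edgeR 4.0.16, which left 12568, scaled by TMM and tested with glmQLFit (robust) and glmQLFTest in R 4.3.3 (KO over WT), with Benjamini-Hochberg adjustment over all genes and a threshold of 0.05. The common biological coefficient of variation was 30.1%. In simulated counts for this comparison over 12568 genes, 16%, 60%, 90% and 98% of genes changed 1.5-, 2-, 3- and 4-fold were recovered, with 50 genes at each fold. The changed genes were drawn only from those above a minimum mean level, and all folds were planted together. Recovery can be lower where fewer genes change, which was not simulated. Ratios of log2 CPM (prior count 0.5) were tested by exact permutation in SciPy 1.17.1. Levels per kilobase used the GENCODE principal transcript. Intervals of 95% come from the fit. Library totals of 11755944 to 18450678 counts, with 100091 to 157993 on the 38 members, set the depth.

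The members and lists were chosen with earlier results of these data known. Named genes were the 5 immunoproteasome genes, Psmb5, Psmb6 and Psmb7, the 2 with the smallest p of each role and related list, the highest and lowest log2 fold change, Tap1 and Tap2; other names were chosen after their values were seen. Of 65 related symbols, 62 were matched. Results were recomputed with DESeq2 1.42.0, limma-voom (limma 3.58.1), 2 other scalings (RLE, upper-quartile), all genes kept or 1 CPM needed in 3 libraries, GC and length offsets, a replicate block, each library left out and, added later, the earlier edgeR quasi-likelihood method. Replicate numbers were not taken to pair the samples.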

Additional observations from a re-analysis of the deposited data

How the results depend on the processing

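Of 570 member values under 15 alternatives, 556 kept their sign and 14, in 6 members, did not. The reversed log2 fold changes with all libraries were those of Psmd12, at -0.001 with RLE scaling, -0.002 with upper-quartile scaling and with the filter of 1 CPM, -0.003 in DESeq2 and -0.028 with GC and length offsets. Over the 6 removals of a single library, Psmd12 ran between -0.098 (WT replicate 3 removed) and 0.097, and was -0.041 once KO replicate 1 was removed. Psmc6 ran between -0.07 (WT replicate 3 removed) and 0.085, with -0.068 for KO replicate 1. Psmb1 ran between -0.064 (WT replicate 3) and 0.269, with -0.045 for KO replicate 2. Psmd8 ran between -0.148 (WT replicate 3) and 0.293, Psme3 between -0.007 (KO replicate 2) and 0.165, and Psme4 between -0.014 (KO replicate 2) and 0.127. The number of members above 0 was 34 when WT replicate 3 was removed, 35 for KO replicate 2, 36 for KO replicate 1 and 37 or 38 in all other settings. Members called stayed at 0 in every alternative. At an unadjusted p under 0.05 there were 10 members on removal of KO replicate 1 and 14 on removal of WT replicate 2. There were 0 on removal of any one of the other libraries, and 2 to 4 under the other settings with no block. Over all genes, in either direction, such a p was reached by 1621 of 13173 without KO replicate 1. It was reached by 850 of 13155 without WT replicate 2 and by 725 of 12568 in the main comparison. Genes called, 0 in the main comparison, were 3 with no filter, 10 in DESeq2 and 0 to 7 on removal of a library (7 for KO replicate 1, 1 each for KO replicate 2 and WT replicate 3). Removing a library moved the median log2 fold change of the immunoproteasome genes between 0.14 (KO replicate 2) and 0.359 (KO replicate 1), and that of the constitutive genes between 0.138 (KO replicate 2) and 0.292 (WT replicate 2). The difference between these medians, 0.096, was 0.002 once KO replicate 2 was removed. With GC and length offsets the medians were 0.217 and 0.15, while that of all genes was 0.047. The log2 ratio difference of Psmb8 to Psmb5 ran between -0.076 (WT replicate 2 removed) and 0.027 (WT replicate 1), with 0.001 for KO replicate 2. That of Psmb9 to Psmb6 ran between -0.066 (WT replicate 2) and 0.019 (WT replicate 1), with 0.015 for KO replicate 3 and 0.012 for WT replicate 3. The cause of these changes was not tested.

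Deviations of libraries with the same replicate number correlated at -0.001, 0.012 and -0.009 over genes, so the numbers were not taken to pair the samples. With the replicate number as a block in edgeR, 0 members and 0 genes were called, and 38 members lay above 0. An unadjusted p under 0.05 was reached by 10 members, against 942 of all 12568 genes in either direction. The smallest adjusted p among members was 0.659. The medians were 0.267 (immunoproteasome) and 0.181 (constitutive), and the ratio differences were -0.033, -0.012 and 0.051.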
